A study of Mus musculus with 17 samples.

Results

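Htr3a and Htr3b encode the subunits of the serotonin-gated ion channel in the mouse, and both were read from every library of a series on retinal pigment epithelium (RPE), the pigmented layer behind the photoreceptors. They are 2 of the 22253 genes in the count table. The pair was picked by name with its values in view, so the levels of both genes are given as a description and no test was made of them. The study asked how RPE cells that use Serpine3, a gene of the serpin family of protease inhibitors, differ from RPE cells that do not, and where in the eye they lie. Each of its 17 libraries was made from a small pool of hand-picked RPE cells, 10 to 15 per pool by the sample labels (the methods of the study give a lower range), after the eyecup had been cut into a peripheral and a central part.

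All mice were Serpine3GFP/+ at 2 months of age with no treatment described, and carried a GFP reporter with a transcription terminator behind the start codon, in exon 2, of 1 Serpine3 allele. The control cells came from the same kind of mouse, so that every group had 1 disrupted Serpine3 allele and there was no wild-type group. The group named GFP+ held 6 libraries of fluorescent peripheral cells, ctrl periphery held 5 libraries of peripheral control cells and ctrl center held 6 libraries of central control cells. The methods describe the control cells as GFP-negative, and the study describes variable GFP levels among peripheral cells. Mice 1, 2, 4, 5 and 7 gave a library of each group, mouse 3 a GFP+ library and mouse 6 a ctrl center library, and the label of mouse 1 carries 2 animal numbers.

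The channel is a pentamer of the Cys-loop family, the same family as the nicotinic acetylcholine, GABA type A and glycine receptors, and it lets cations through when serotonin binds. Htr3a subunits can form a working channel alone, whereas Htr3b subunits need Htr3a to reach the cell surface and change the conductance of the channel they join. In the mouse retina Htr3a is best known from a class of cone bipolar cells. The other serotonin receptors belong to the G protein-coupled family and are not channels.

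In GRCm38, with the GENCODE annotation used here, Htr3a lies at chr9:48899213-48911099 on the minus strand and Htr3b at chr9:48935008-48964990 on the same strand. Each gene has 9 exons. Htr3a has 2 transcripts of 2082 and 1987 bases with coding lengths of 1467 and 1449 bases, and Htr3b has 1 transcript of 2411 bases with a coding length of 1311 bases. Exons 3, 4, 5 and 7 are of equal length in the 2 genes, with 60.0%, 58.2%, 63.5% and 64.9% identical bases. Exon 7, the most alike of them, is printed here for both genes to show how closely the 2 genes resemble each other. Capitals mark the 137 of 211 bases that are the same at the same position. The Htr3a exon is chr9:48900874-48901084 and the Htr3b exon chr9:48937049-48937259, both read 5′ to 3′ on the minus strand.
Htr3a exon 7: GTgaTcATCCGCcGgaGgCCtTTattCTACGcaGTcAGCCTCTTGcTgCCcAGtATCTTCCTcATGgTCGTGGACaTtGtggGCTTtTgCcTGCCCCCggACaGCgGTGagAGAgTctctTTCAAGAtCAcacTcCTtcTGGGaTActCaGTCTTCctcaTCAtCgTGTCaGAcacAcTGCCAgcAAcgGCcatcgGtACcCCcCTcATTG
Htr3b exon 7: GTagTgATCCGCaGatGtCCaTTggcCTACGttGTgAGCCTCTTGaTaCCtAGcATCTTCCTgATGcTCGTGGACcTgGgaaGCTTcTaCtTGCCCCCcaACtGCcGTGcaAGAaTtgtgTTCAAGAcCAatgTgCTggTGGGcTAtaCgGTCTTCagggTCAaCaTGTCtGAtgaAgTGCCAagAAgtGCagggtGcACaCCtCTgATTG
The longest run of identical bases was 9 in exon 7 and 12 in exon 5. No stretch of 31 bases of either transcript set occurred in the other, and 0 of the 2080 such stretches of Htr3a occurred in any other annotated gene. For Htr3b, 12 of 2364 did.

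The 2 Htr3a transcripts use different starts of exon 9, and the longer transcript holds 18 more coding bases there. They are the capitals in the first 30 bases of the exon, chr9:48899979-48900008 on the minus strand, and are shown because the counts are per gene and do not say which of the transcripts was present.
Htr3a exon 9 start: GTTCTGATCTTCTTCCAGccatgggaaacc
An antisense gene, Gm32335, lies across Htr3a on the plus strand and shares 0 exon bases with it. No annotated gene overlaps Htr3b.

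Total counts ranged from 10802130 to 22467079 in GFP+, from 11474454 to 19625206 in ctrl periphery and from 9896118 to 15963055 in ctrl center. Serpine3 itself was read 107 to 576 times in each GFP+ library, 5 times in the ctrl periphery library of mouse 1 and 0 times in the other control libraries. The share of all counts that fell on the 13 mitochondrial genes was 7.95% ± 5.70 (SD, n = 6) in GFP+, 19.7% ± 6.98 (SD, n = 5) in ctrl periphery and 29.1% ± 12.2 (SD, n = 6) in ctrl center. Of 10 RPE markers, 9 were above 3 counts in every group, and Best1, with 7 counts in all, was above 3 counts in no library. A level is given as CPM, the read count scaled to a common library size with TMM factors, and 3 counts are taken as the floor that a count of 0 allows, 0.116 to 0.554 CPM by library.

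Htr3a, the subunit that can form the channel alone, was highest in GFP+. Its counts in mice 1, 2, 3, 4, 5 and 7 were 15608, 15670, 11601, 6261, 3610 and 14033, which is 606, 744, 516, 473, 254 and 669 CPM. All 6 GFP+ libraries were above every control library, and the library of mouse 5 was the lowest of them. In ctrl periphery the counts in mice 1, 2, 4, 5 and 7 were 868, 1357, 3012, 1146 and 823, or 48.4, 70.3, 145, 91.0 and 81.4 CPM. Every peripheral control library thus held Htr3a, with mouse 4 the highest. In ctrl center the counts in mice 1, 2, 4, 5, 6 and 7 were 1, 534, 401, 0, 1 and 1. The libraries of mice 2 and 4 stood at 29.4 and 40.0 CPM, and the other 4 were under the floor.

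The group means of Htr3a were 543 ± 173 CPM in GFP+ (SD, n = 6), 87.2 ± 36.0 in ctrl periphery (SD, n = 5) and 11.6 ± 18.2 in ctrl center (SD, n = 6). The mean in GFP+ was 6.23 times that in ctrl periphery and 46.8 times that in ctrl center, and the mean in ctrl periphery was 7.52 times that in ctrl center. On the log2 scale these ratios were 2.64, 5.55 and 2.91. The ratios against ctrl center rest on 2 libraries, since the median of ctrl center was 0.0975 CPM, and without its library of mouse 4 the ctrl center mean was 5.93 CPM and the log2 ratios were 6.52 for GFP+ and 3.88 for ctrl periphery. The groups did not overlap. The lowest GFP+ library was at 1.75 times the highest ctrl periphery library, and the lowest ctrl periphery library at 1.21 times the highest ctrl center library. The share of all genes whose groups also did not overlap was not counted. The shares of genes called, given next, are another measure, and Htr3a is among the genes tested. As background, edgeR's quasi-likelihood test called 4 of 10102 genes between GFP+ and ctrl periphery, or 0.0396%, with limits of 0.01 for the adjusted p (Benjamini-Hochberg) and 1 for the size of the log2 fold change. Between GFP+ and ctrl center it called 4 of 9286 genes, or 0.0431%. Between ctrl periphery and ctrl center edgeR called 0 of 9535, or 0%, with 257 genes at an unadjusted p under 0.05, and DESeq2 called 29. The 4 edgeR calls of each GFP+ comparison were all higher in GFP+. With the mouse as a replicate block the edgeR calls were 0 for GFP+ against ctrl periphery and 56 for GFP+ against ctrl center. Of these 56, 1 was higher and 55 were lower in GFP+. DESeq2 without the block called 67 (37 higher and 30 lower) and 202 (82 higher and 120 lower). In pools of cells, fewer cells with a transcript and less of it per cell cannot be told apart.

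**Figure D1:**
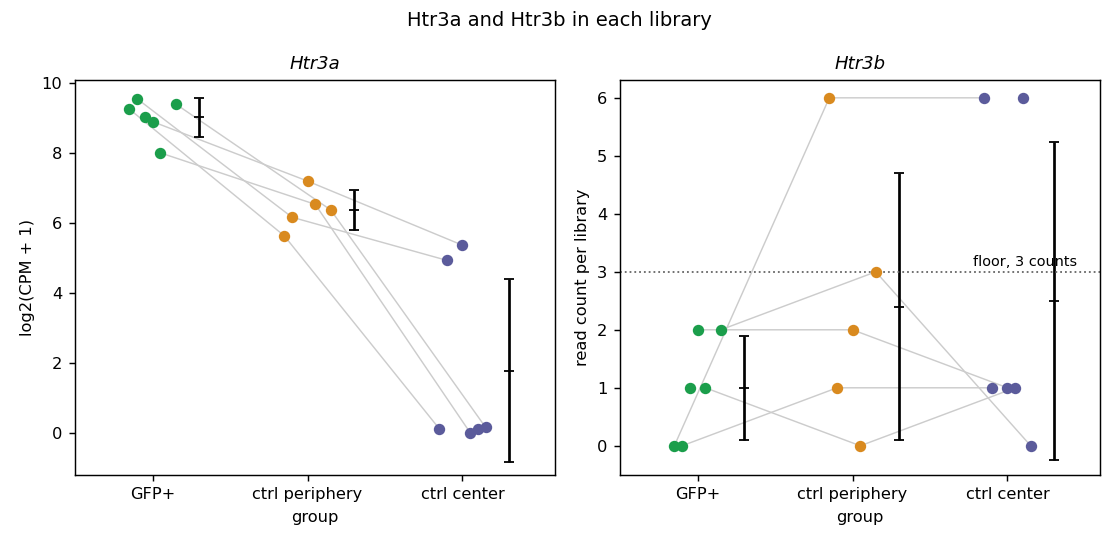
Htr3a as log2(CPM + 1) on the left and Htr3b as the read count on the right, 1 point per library in GFP+ (n = 6), ctrl periphery (n = 5) and ctrl center (n = 6). Grey lines join libraries of 1 mouse, black bars are the mean ± SD of the plotted values, and the dotted line is the floor of 3 counts. Htr3a falls into 3 groups without overlap, with 4 ctrl center libraries near 0, and Htr3b stays at 6 counts or fewer.

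The order GFP+, ctrl periphery, ctrl center held inside each of the 5 mice that gave all 3 groups. Because the groups did not overlap, this order was fixed in advance and adds no support. Htr3a in GFP+ was 12.5, 10.6, 3.26, 2.79 and 8.23 times the ctrl periphery level of the same mouse in mice 1, 2, 4, 5 and 7. The ratio was lowest in mice 4 and 5. In mice 2 and 4, the level in ctrl periphery was 2.40 and 3.62 times that in ctrl center. In mouse 5, where ctrl center had no read, it was at least 164-fold higher against the floor of 3 counts. In mice 1 and 7 ctrl center had 1 read, against 868 and 823 reads in ctrl periphery.

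The labels' animal numbers fall into 2 runs, mice 1 to 3 and mice 4 to 7, which the labels do not call batches. Among mice 1 to 3, Htr3a was at 516 to 744 CPM in GFP+, 48.4 to 70.3 in ctrl periphery and 0.0841 to 29.4 in ctrl center. Among mice 4 to 7, it was at 254 to 669, 81.4 to 145 and 0 to 40.0 CPM. As the groups did not overlap over all 17 libraries, they could not overlap within either run, with 2 to 4 libraries per group. The share of all genes without overlap in both runs was not counted. Among the ctrl center libraries under the floor, genes with at least 10 counts numbered 5392 and 6430 in mice 5 and 7, the fewest of all 17 libraries, and 9723 and 8371 in mice 1 and 6. They numbered 10450 and 6681 in the libraries of mice 2 and 4, where Htr3a was present, and the part of this number in the Htr3a counts was not tested. With the mitochondrial genes left out of the totals, the log2 ratios of the means were 2.70 for GFP+ against ctrl periphery, 5.63 for GFP+ against ctrl center and 2.93 for ctrl periphery against ctrl center.

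Htr3b, the subunit that needs Htr3a, was close to absent. Its counts were 0, 0, 1, 2, 1 and 2 in GFP+, 6, 1, 2, 0 and 3 in ctrl periphery and 6, 1, 1, 1, 6 and 0 in ctrl center, with mice in the same order as for Htr3a. Over all 17 libraries this came to 33 reads, against 74927 for Htr3a. Only 3 libraries were above the floor, each with 6 reads, and none of them was a GFP+ library. At this depth a difference in Htr3b between groups was not detectable. The 2 ctrl center libraries with 6 Htr3b reads were those of mice 1 and 6, each with 1 read of Htr3a. Of the 2 genes, Htr3a passed edgeR's filter on low counts in all 3 comparisons and Htr3b in none.

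Per kilobase of exon, Htr3a stood at 261 ± 83.0 CPM per kb in GFP+ (SD, n = 6), 41.9 ± 17.3 in ctrl periphery (SD, n = 5) and 5.57 ± 8.73 in ctrl center (SD, n = 6). The floor for Htr3b was 0.0672 CPM per kb in GFP+, averaged over its libraries, and no GFP+ library exceeded 3 reads. By CPM per kb, Htr3a ranked between 94 and 315 among the genes of each GFP+ library, between 559 and 1443 in ctrl periphery and between 2021 and 11499 in ctrl center. It was among the more abundant transcripts of the GFP+ pools.

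Set against all 42 subunit genes of the Cys-loop family, Htr3a was the one with the highest CPM per kb in each of the 6 GFP+ and 5 ctrl periphery libraries. It made up 74.6% to 88.2% of the summed CPM per kb of the family in GFP+ libraries and 34.0% to 63.6% in ctrl periphery libraries. In ctrl center it ranked 1 in mouse 4 and 2 in mouse 2, and 8 to 20 in the other 4 libraries. Of the other 40 family genes, leaving out Htr3b, 4 were above the floor in all 17 libraries and 16 in none.

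**Figure D2:**
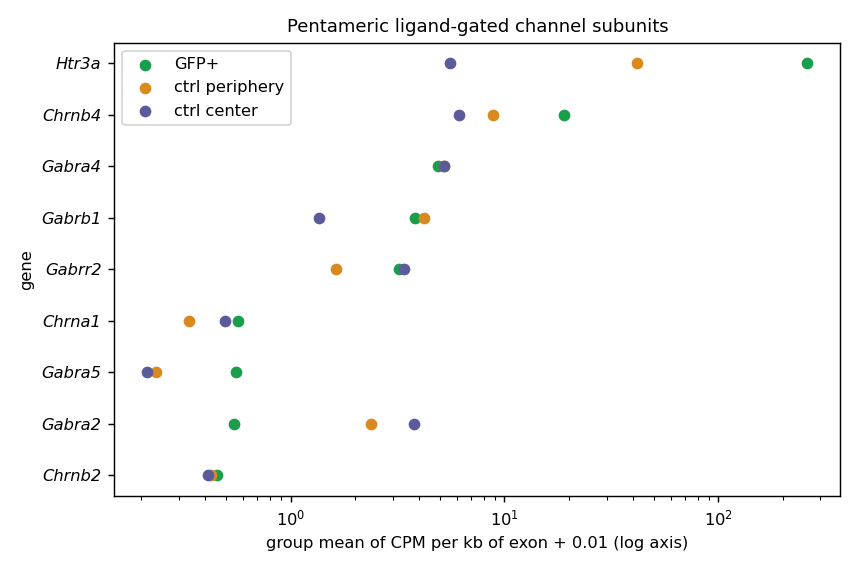
Group means of CPM per kb of exon plus 0.01, on a log axis, for Htr3a and 8 of the 9 other Cys-loop subunit genes above 3 counts in at least 9 of 17 libraries; colours are GFP+ (n = 6), ctrl periphery (n = 5) and ctrl center (n = 6). Htr3a spreads from 5.57 in ctrl center to 261 in GFP+, and the next highest gene in GFP+, Chrnb4, is at 19.0.

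Chrnb4, a beta subunit of nicotinic receptors, came next after Htr3a in GFP+ by CPM per kb, 19.0 against 8.86 in ctrl periphery and 6.09 in ctrl center. Its levels were 15.4 to 158 CPM in GFP+, 9.58 to 73.0 in ctrl periphery and 0 to 95.3 in ctrl center, so the groups overlapped. Its log2 fold change of GFP+ against ctrl center was 1.54 ± 1.02 (SE), with an adjusted p of 1.00 by edgeR's quasi-likelihood test and Benjamini-Hochberg adjustment. It was 2.97 without the ctrl center library of mouse 7, the highest of that group, and 3.06 in the fit blocked by mouse, and the adjusted p ranged from 0.354 to 1.00 over the alternatives. Gabrb1, a beta subunit of GABA type A receptors, was at 52.6, 58.0 and 18.7 CPM in GFP+, ctrl periphery and ctrl center, with overlapping ranges. Gabra2, an alpha subunit, had the lowest unadjusted p of the listed genes. It stood at 1.14 to 7.25 CPM in GFP+, 6.35 to 51.2 in ctrl periphery and 3.79 to 87.4 in ctrl center, a log2 fold change of -3.02 ± 1.03 (SE) of GFP+ against ctrl center, with an adjusted p of 0.391 by edgeR's quasi-likelihood test. DESeq2 gave it -3.07 with an adjusted p of 0.00986, past the limit, and over all alternatives its adjusted p ranged from 0.00986 to 0.892. Without the ctrl center library of mouse 5, the log2 fold change was -2.16. Chrnb2, another nicotinic beta subunit, was at 3.69, 3.49 and 3.35 CPM in the same order. The 5 glycine receptor genes were at or under the floor in all libraries, with 9 reads of Glra3 and 4 of Glrb in all.

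Of the 73 genes listed for the channel family, serotonin receptors, serotonin supply and channel assembly, 18, 21 and 20 passed the filter for GFP+ against ctrl center, GFP+ against ctrl periphery and ctrl periphery against ctrl center. edgeR's quasi-likelihood test called 0 of them in each comparison, beside 4, 4 and 0 over all genes tested. It gave 2, 2 and 1 of them an unadjusted p under 0.05, beside 539 of 9286, 564 of 10102 and 257 of 9535 genes. DESeq2 called 1 of 27, 0 of 24 and 0 of 24 listed genes, beside 202 of 12442, 67 of 11744 and 29 of 11232 over all. The GABA type A genes that were tested had a median log2 fold change of -0.25 for GFP+ against ctrl center (5 genes) and the nicotinic genes 0.17 (3 genes), beside 0.00067 over all 9286 genes tested.

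The G protein-coupled serotonin receptors were near absent. Of the 12 genes, 11 were above the floor in no library, and none passed the filter in any comparison. Htr2b, which couples to the calcium pathway, was the exception, with 100 reads in the GFP+ library of mouse 5, 10 in the ctrl center library of mouse 1 and 0 in the other 15. Htr7, which couples to cyclic AMP, had 4 reads in all. Htr3a was therefore the one serotonin receptor gene above the floor in more than 3 libraries, at 13 of 17.

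Genes that make, move and break down serotonin were present in part. Tph1, the enzyme for the rate-limiting step of serotonin synthesis outside neurons, had 86 reads in the GFP+ library of mouse 4, 1 and 3 reads in 1 library each of ctrl periphery and ctrl center, and 0 elsewhere. Tph2, its neuronal counterpart, had 5 reads in all and was above the floor in no library. Slc6a4, the serotonin transporter that takes serotonin up at the plasma membrane, was at 0 in all 17 libraries, as was Asmt, which makes melatonin. Aanat, the enzyme before it in melatonin synthesis, was above the floor in 16 libraries, at 17.2, 17.4 and 19.5 CPM in GFP+, ctrl periphery and ctrl center. Of the other carriers, the organic cation transporter Slc22a2 was above the floor in 9 libraries and the vesicular monoamine transporter Slc18a2 in 7.

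Ddc, the decarboxylase that makes serotonin and dopamine from their precursors, was at 54.4 ± 18.2 CPM in GFP+ (SD, n = 6), 55.9 ± 29.2 in ctrl periphery (SD, n = 5) and 29.5 ± 28.6 in ctrl center (SD, n = 6). In ctrl center it was above 3 counts in 5 of 6 libraries. Maob, a monoamine oxidase, was at 47.6 ± 24.7, 57.8 ± 39.6 and 34.8 ± 47.9 CPM, with 2 ctrl center libraries at 0. Maoa, the monoamine oxidase that prefers serotonin, was lower, at 0 to 16.2 CPM in GFP+, 0.890 to 24.5 in ctrl periphery and 0 to 1.21 in ctrl center. Its log2 fold change of ctrl periphery against ctrl center was 4.14 ± 1.58 (SE), with an adjusted p of 1.00 by edgeR's quasi-likelihood test and a range of 0.0431 to 1.00 over the alternatives. Aldh2, which oxidises the aldehyde that monoamine oxidases leave, was the most abundant of this list, at 125, 132 and 143 CPM. The 5 supply genes tested for GFP+ against ctrl center had a median log2 fold change of -0.24.

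**Figure D3:**
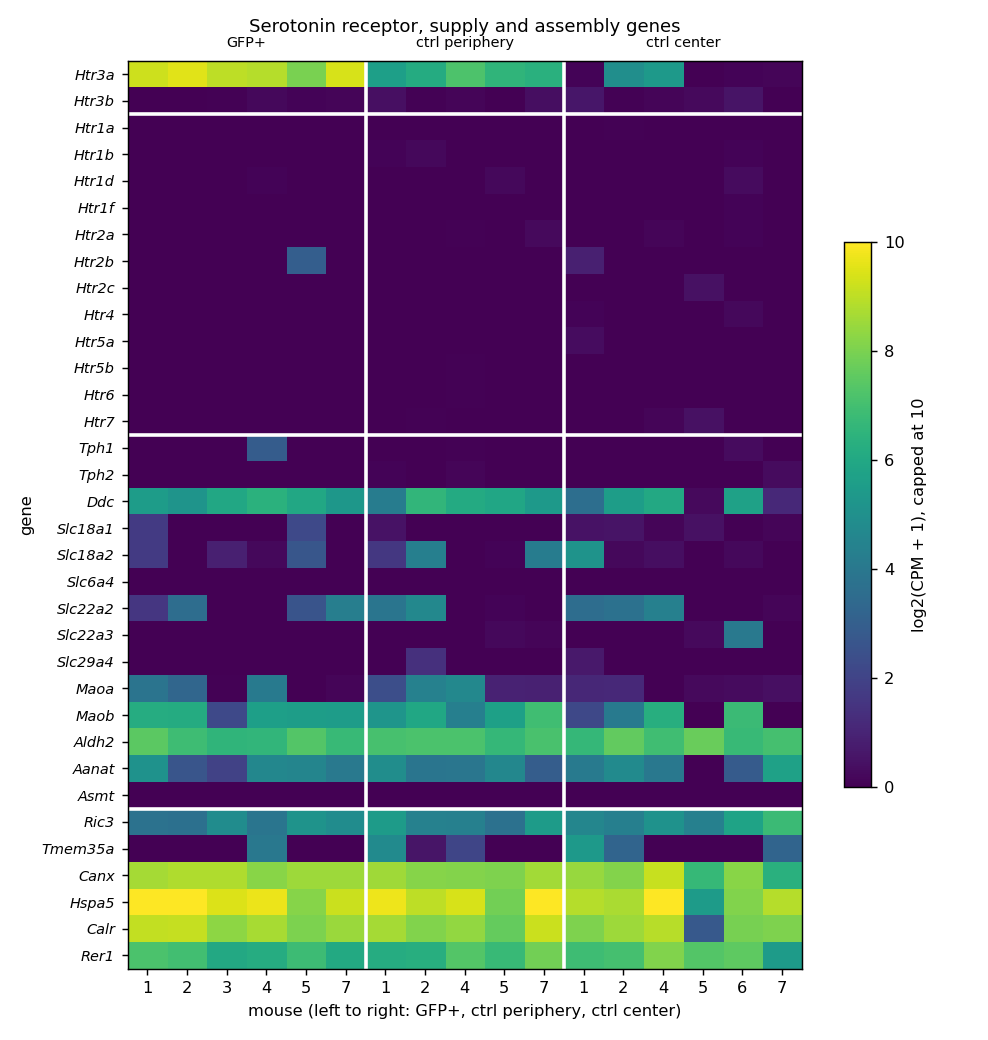
log2(CPM + 1), capped at 10, of Htr3a and Htr3b, the 12 G protein-coupled serotonin receptors, 14 of the 15 serotonin supply genes and 6 assembly genes (blocks from top to bottom) in each library; columns are mice within GFP+ (n = 6), ctrl periphery (n = 5) and ctrl center (n = 6). Htr3a is the bright row of the receptor blocks, the 12 receptors are dark apart from Htr2b in GFP+ mouse 5 and ctrl center mouse 1, and Ddc, Maob and Aldh2 are the brighter supply genes.

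Among genes for channel assembly, Ric3, a chaperone of the endoplasmic reticulum known to act on this channel and on nicotinic receptors, was above the floor in all 17 libraries. It was at 21.5 ± 9.86 CPM in GFP+ (SD, n = 6), 27.7 ± 14.6 in ctrl periphery (SD, n = 5) and 43.5 ± 36.1 in ctrl center (SD, n = 6). The log2 fold change of GFP+ against ctrl center was -1.08 ± 0.66 (SE), with an adjusted p of 1.00 by edgeR's quasi-likelihood test. Tmem35a, a chaperone of nicotinic receptors, was above the floor in 7 libraries, 1 of GFP+ and 3 each of the controls. Hspa5, the general chaperone of the endoplasmic reticulum, was at 1086 ± 764 CPM in GFP+ (SD, n = 6), 684 ± 343 in ctrl periphery (SD, n = 5) and 456 ± 332 in ctrl center (SD, n = 6). Its log2 fold change of GFP+ against ctrl center was 1.24 ± 0.55 (SE), with an adjusted p of 0.757 by edgeR's quasi-likelihood test. Calr, a chaperone that binds glycoproteins, was at 406, 359 and 272 CPM.

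The genes beside Htr3a and Htr3b on the chromosome had other patterns. The 4 nearest protein-coding genes of the table on each side, out to a midpoint 413 kb away on one side and 360 kb on the other, were Rbm7, Gm5617, Nnmt and Zbtb16 on the one and Usp28, Zw10, Tmprss5 and Gm4894 on the other. Of the 8, Rbm7, Gm5617, Usp28 and Zw10 passed the filter, and edgeR's quasi-likelihood test and DESeq2 called 0 of them in any comparison. Rbm7 alone had an unadjusted p under 0.05 in edgeR, for GFP+ against ctrl periphery, with an adjusted p of 0.887 by the quasi-likelihood test. Rbm7, which encodes an RNA-binding protein of RNA decay, was at 82.3, 45.5 and 70.9 CPM in GFP+, ctrl periphery and ctrl center, and Gm5617 at 42.8, 50.9 and 55.9 CPM. Zbtb16, the nearest on the Htr3a side and a zinc finger transcription factor, was above the floor in 1 library, ctrl periphery of mouse 1, at 3.06 CPM. Usp28, a deubiquitinase and the nearest on the Htr3b side, was at 5.26, 1.53 and 10.9 CPM, with libraries at 0 in each group. Zw10, of the mitotic checkpoint, was at 5.23, 4.37 and 15.5 CPM. Nnmt, Tmprss5 and Gm4894 were above the floor in no library.

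**Figure D4:**
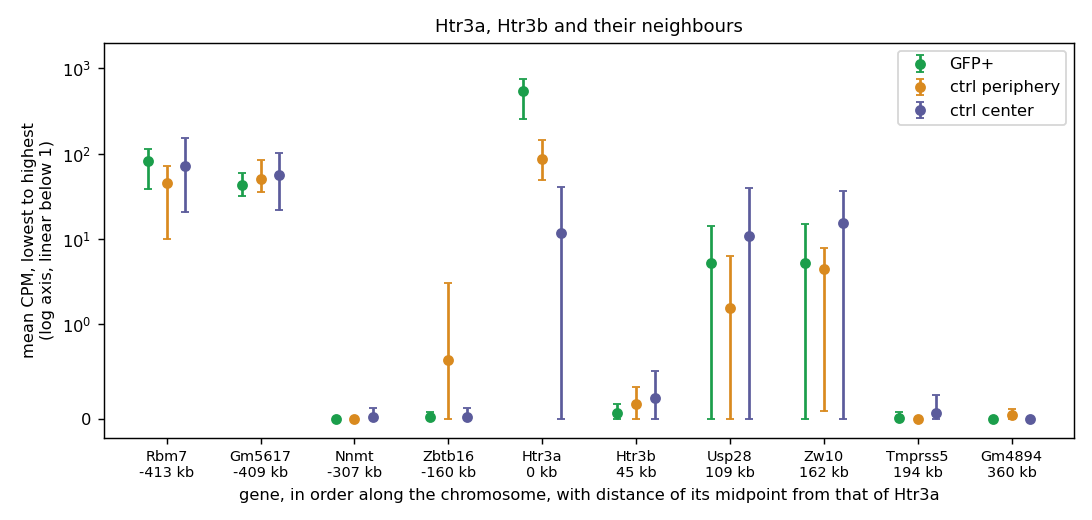
Mean CPM (points) and the lowest to the highest library (bars) on an axis that is logarithmic above 1 and linear below, for Htr3a, Htr3b and 4 protein-coding genes on each side, in GFP+ (n = 6), ctrl periphery (n = 5) and ctrl center (n = 6); the distance under each name is from the midpoint of Htr3a. Htr3a alone among the 10 has groups that are apart, at 543, 87.2 and 11.6 CPM, and Htr3b lies near 0. Htr3a was picked with its values in view, and the share of all genes with groups apart was not counted.

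The 5 genes whose levels were most like those of Htr3a, by Pearson's r of log2(CPM + 1) over the 17 libraries among 11604 genes with a mean count of at least 10, were Taf12 (0.943), Upk3b (0.933), AW209491 (0.919), Tyrp1 (0.917) and Rnaset2a (0.887). The points share mice, groups and depth, and the genes were picked for this likeness, so the values are a description. Taf12, a subunit of the general transcription factor TFIID, was at 27.3 and 40.4 CPM in the ctrl center libraries of mice 2 and 4 and at 0 to 1.18 CPM in the other 4, the same libraries as for Htr3a. With the group means removed, its r with Htr3a was 0.951, beside 0.823 for AW209491, 0.617 for Tyrp1, 0.599 for Upk3b and 0.512 for Rnaset2a. The split of the ctrl center libraries, mice 2 and 4 against the other 4, weighs most in the value for Taf12. In GFP+ Taf12 spanned 35.1 to 52.1 CPM, with its lowest level in mouse 7, where Htr3a was at 669 CPM. Upk3b, a uroplakin of epithelial surfaces, was at 343 ± 80.8 CPM in GFP+ (SD, n = 6), 71.6 ± 38.5 in ctrl periphery (SD, n = 5) and 6.85 ± 16.2 in ctrl center (SD, n = 6). In ctrl center Upk3b was at 40.0 CPM in mouse 4 and at 0 in mouse 2, where Htr3a was present. AW209491 was at 53.9, 34.8 and 5.65 CPM on average, and in ctrl center at 18.3 and 15.4 CPM in mice 2 and 4 and 0 to 0.185 in the other 4. Tyrp1, an enzyme of melanin synthesis, was at 72.3 to 523 CPM in GFP+, 2.67 to 127 in ctrl periphery and 0 to 9.35 in ctrl center, again highest in mice 2 and 4. Rnaset2a, a ribonuclease with a near-identical copy that can share its reads, spanned less, at 249, 132 and 85.9 CPM. Htr3b, above the floor in 3 libraries, had too few reads for such a comparison.

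**Figure D5:**
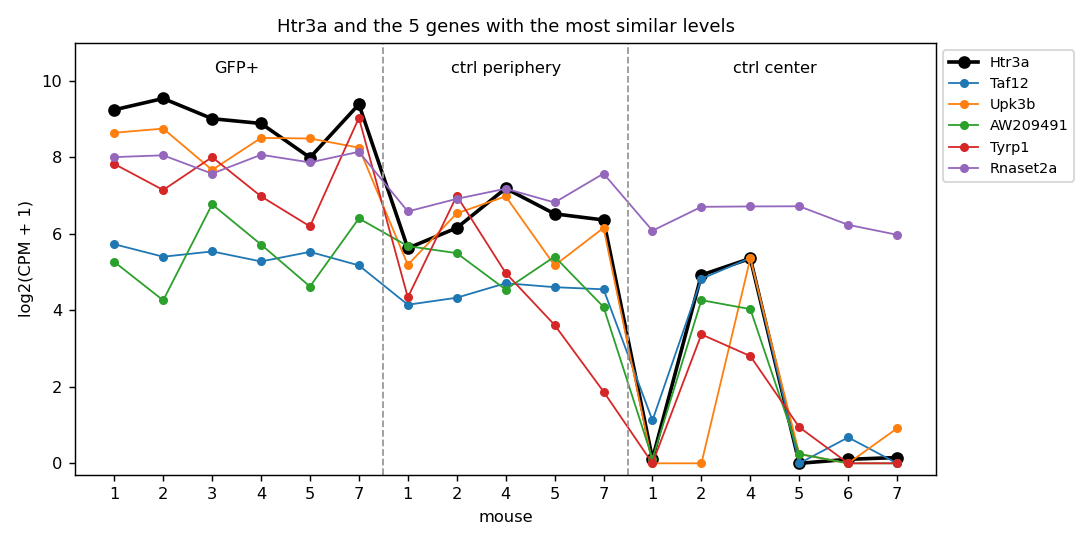
log2(CPM + 1) of Htr3a (black) and the 5 genes with the highest correlation with it, library by library, with mice on the horizontal axis and dashed lines between GFP+ (n = 6), ctrl periphery (n = 5) and ctrl center (n = 6). Htr3a, Taf12, AW209491 and Tyrp1 are highest among the ctrl center libraries in those of mice 2 and 4, and Upk3b in that of mouse 4.

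Because Htr3a is known from bipolar cells of the retina, the markers of other cells were read in the same pools. Of 10 bipolar and amacrine markers, 4 were at or under the floor in all 17 libraries, among them Grm6 and Cabp5, which mark bipolar cells, and Gad1, which marks amacrine cells. Gad2 was above the floor in 5 libraries, Isl1 and Tfap2b in 2 each and Slc32a1 in 1. Slc6a9, a glycine transporter, and Prkca, a kinase of rod bipolar cells, were above it in all 17, with means of 106, 111 and 76.9 CPM in GFP+, ctrl periphery and ctrl center for Slc6a9 and ranges of 9.16 to 36.2, 6.58 to 18.5 and 6.68 to 25.3 CPM for Prkca. The summed level of the list was 78.6 to 180 CPM in GFP+, 60.2 to 216 in ctrl periphery and 45.5 to 156 in ctrl center, and its part in the Htr3a levels was not tested. The 10 photoreceptor markers, led by Pde6a and Gnat1, summed to 3.42 to 35.8, 10.8 to 38.7 and 12.8 to 128 CPM. Their part in the Htr3a levels was not tested. The summed RPE markers, led by Ttr and Rgr, stood at 69668 to 82847 CPM in GFP+, 56074 to 89326 in ctrl periphery and 48640 to 99312 in ctrl center. For GFP+ against ctrl center, 9 of them were tested, 4 had a positive log2 fold change and 0 were called. By edgeR's quasi-likelihood test 2 had an unadjusted p under 0.05, beside 539 of 9286 genes. These were Rpe65, at means of 5024, 7080 and 8327 CPM in GFP+, ctrl periphery and ctrl center, and Lrat, at 1054, 1669 and 1757 CPM. Of the ciliary and iris list, 4 of 7 genes were above the floor in no library. Its sum was at most 1.81 CPM in GFP+ and 0.635 in ctrl periphery, and reached 39.0 in ctrl center. Col9a1 and Aqp1 had the highest means over all 17 libraries. Both were at 0 in every ctrl periphery library, where Zic1 reached 0.556 CPM. The melanocyte markers Sox10 and Mlana and the macrophage marker Csf1r were present, Sox10 and Csf1r in all 17 libraries, whereas C1qa and Tyrobp were at 0 in all. The melanocyte list summed to 56.0 to 168, 54.2 to 163 and 64.1 to 241 CPM. The macrophage list summed to 35.6 to 111, 96.7 to 146 and 68.4 to 116 CPM. Csf1r led it, and Ptprc, the next, was above the floor in only 2 libraries. The Mueller glia list summed to 581 to 753, 456 to 775 and 376 to 678 CPM. Most of that sum was Glul, with means of 667, 622 and 557 CPM. Dkk3 was above the floor in 7 libraries, Slc1a3 in 4, Kcnj10 in 2 and Aqp4 in none. The endothelium list, led by Plvap and Flt1, summed to 7.97 to 27.0, 1.03 to 26.0 and 0.333 to 16.3 CPM. The stroma list, led by Col1a1 and Lum, summed to at most 2.03 CPM in any library.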

How the data were processed

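RNA was measured in 17 libraries of hand-picked RPE cells made, by the labels' extract protocol, with the SMART-Seq mRNA LP kit. The methods of the study name another SMARTer kit. The authors deposited 1 table of estimated counts per gene symbol, already whole numbers and not normalized. The submitters' processing notes name fastp, Salmon and GRCm38.p6. The annotation and the use of strand are not given in the sources used here. All columns were matched to samples by name, with 0 left unused. Groups and mice came from the sample labels.

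CPM used TMM factors over all 17 libraries, and CPM per kb the union of the exons of GENCODE in GRCm38, which held 21853 of the 22253 symbols (98.2%). The authors may have used another annotation, so exon lengths and positions are context. Comparisons used edgeR (version 4.0.16, R version 4.3.3) with filterByExpr at its defaults, TMM and the quasi-likelihood test, over the libraries of both groups compared, with Benjamini-Hochberg adjustment over all genes tested. A call needed an adjusted p under 0.01 and a log2 fold change over 1 in size. The methods of the study name DESeq2 (version 1.42.0 here), which was run as an alternative. The procedure was also run on simulated counts with a common dispersion and no pairing by mouse. These settings differ from the pools, so that run is no evidence for the calls. The other alternatives were median-of-ratios factors, no filter, the mouse as a replicate block and leaving out each library, and for the member levels raw totals and totals without the 13 mitochondrial genes.

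The members and lists were chosen with earlier results of these data known. Named genes were the members, any called list gene, the 2 most abundant genes of each list, the neighbours, the most similar genes and Ric3, Tmem35a, Tph1, Tph2, Ddc, Slc6a4, Maoa and Maob. Results for some single genes are not reported here. Other genes named beside counts were chosen after their values were seen. The labels give libraries of 1 mouse the same animal number, which pairs them. Over 15 pairs their deviations from the group means correlated at -0.0216 to 0.0907. No 2 of the 136 library pairs were identical. PCR copies were counted without molecular identifiers, so floors cover counting error only.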

Additional observations from a re-analysis of the deposited data

Results flagged for a closer look

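Within each group, 1 library far from the others was looked for in the named genes of the channel, serotonin, assembly, neighbour and likeness lists, Prkca, Slc6a9, the total count and the mitochondrial share, leaving out groups in which no library was above 3 counts. Of 96 checks, 15 found one. The limit used would pass about 1 in 20 groups of normally distributed values. Several of these groups are mostly at 0, where that rate does not hold, so 15 of 96 cannot be read against it. Upk3b was at 40.0 CPM in the ctrl center library of mouse 4 and at 0 to 0.887 CPM in the other 5. Htr3a was also at 40.0 CPM in that library, with 401 reads of each gene. Tyrp1 was at 127 CPM in the ctrl periphery library of mouse 2 and at 2.67 to 30.5 CPM in the other 4. Chrnb4 was at 95.3 CPM in the ctrl center library of mouse 7 and at 0 to 15.2 CPM in the other 5. Gabra2 was at 51.2 CPM in the ctrl periphery library of mouse 5 and at 6.35 to 11.3 CPM in the other 4. Tmem35a was at 15.0 CPM in GFP+ mouse 4 and 0 in the other 5, at 26.5 in ctrl periphery mouse 1 and 0 to 3.27 in the other 4, and at 40.1 in ctrl center mouse 1 and 0 to 8.42 in the other 5. Htr2b was at 7.04 CPM in GFP+ mouse 5 and 0.841 in ctrl center mouse 1, and at 0 in the others of each group. Tph1 was at 6.49 CPM in GFP+ mouse 4 and 0 in the other 5. Slc18a2 was at 34.2 CPM in ctrl center mouse 1 and 0 to 0.299 in the other 5. Chrnb2 was at 14.7 CPM in ctrl center mouse 6 and 0 to 3.09 in the other 5. Usp28 was at 6.23 CPM in ctrl periphery mouse 7 and 0 to 1.39 in the other 4, and Zbtb16 at 3.06 in that of mouse 1 and 0 to 0.0481 in the other 4. Aldh2 was low in ctrl periphery mouse 5, at 99.0 CPM against 135 to 144 in the other 4. Neither Htr3a nor Htr3b had such a library in any group checked.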

How the results depend on the processing

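The log2 ratios of the Htr3a group means kept their sign in 43 of 43 alternatives. Since the groups did not overlap, leaving out a library could not change the sign. With each library left out in turn, the log2 ratio for GFP+ against ctrl center ranged from 5.29 to 6.52. It ranged from 2.49 to 2.90 for GFP+ against ctrl periphery and from 2.65 to 3.88 for ctrl periphery against ctrl center. The upper ends for ctrl center came without the library of mouse 4, which lowered the ctrl center mean from 11.6 to 5.93 CPM. For the calls over all genes, DESeq2 gave 202, 67 and 29 in the order GFP+ against ctrl center, GFP+ against ctrl periphery and ctrl periphery against ctrl center, where edgeR gave 4, 4 and 0. The cause was not tested. With each library left out, the edgeR calls ranged from 1 to 3, from 0 to 5 and from 0 to 0. For GFP+ against ctrl center, they were 1 without GFP+ mouse 2, 3 or 7 or ctrl center mouse 2 or 6, and 2 without GFP+ mouse 4 or 5 or ctrl center mouse 1 or 7. For GFP+ against ctrl periphery, they were 0 without GFP+ mouse 1 and without ctrl periphery mouse 1, 2, 5 or 7, 1 without GFP+ mouse 2 or 4, and 2 without GFP+ mouse 5 or 7. With the mouse as a replicate block they were 56 (1 higher and 55 lower in GFP+), 0 and 0, and no call among the listed genes changed. Among the listed genes, the 1 call of DESeq2, Gabra2, was the one other change. Of the fits of single genes, 187 stayed on their side of the limit and 1 passed it. The depth does not resolve Htr3b, at 6 reads or fewer, and 4 of 6 ctrl center libraries do not resolve Htr3a.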
